A study of Mus musculus with 4 samples.

Results

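The genes described here are the matrix metalloproteinases (MMP), the secreted ADAMTS proteases and their tissue inhibitors (TIMP) in mouse tumour cells that lack Smarcb1 or had it put back. All genes whose platform symbol is Mmp, Adamts or Timp followed by a number were taken, whatever their signal. That gave 44 of 19938 measured genes: 22 MMP, 18 ADAMTS and 4 TIMP genes. The families themselves were chosen with earlier results of these data known, so their shares beside all genes are descriptions only. Where a gene had several probe sets, the one with the highest mean over the arrays stands for it. Mmp15 and Adamts2 were not analysed here.

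The cells were lines 167 and 365, grown from soft tissue tumours of mice that were Smarcb1-heterozygous and p53 null, with the genetic background C57BL6/SV129J. All 4 cultures are p53 deficient, and both lines are labelled as Smarcb1 deficient. The pMIG retrovirus brought Smarcb1 into 1 culture of each line, and the control culture received pMIG without an insert. Total RNA was taken after 3 days, a time chosen so that direct targets of Smarcb1 would be favoured. There was 1 whole-transcript array for each line and vector. Sorting of infected cells and the share that carried the virus are not stated in the labels. Smarcb1 belongs to the SWI/SNF complex, which moves nucleosomes, and its loss marks malignant rhabdoid tumours.

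MMPs are zinc endopeptidases that are made as inactive precursors and cleave collagens, proteoglycans and other matrix proteins once their propeptide is removed. ADAMTS proteases share the zinc-binding catalytic site and carry thrombospondin repeats, and they trim procollagens and cut large chondroitin sulphate proteoglycans such as aggrecan and versican. TIMPs are small secreted proteins that block the active sites of these enzymes. In tumours of connective tissue origin the balance of protease and inhibitor is studied for its part in invasion.

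Signals are log2 values after robust multi-array averaging (RMA), so a difference of 1 is 2-fold. They compare arrays within a gene and do not rank one gene against another, since probes differ in brightness. A gene was tested where its mean over the 4 arrays was at least log2 4.27, the 30th percentile of all genes. Of the 44 members, 33 were tested (15 MMP, 15 ADAMTS and 3 TIMP genes), and 26 of those reached this limit on every array. The closest members inside the limit were Adamts18 (mean 4.28) and Adamts13 (4.30), and the closest outside were Adamts19 (4.23) and Adamts15 (4.15). A member that is bright with 1 vector only can pass on that signal alone, so counts over the tested members are descriptions and not evidence about the families. By empty-vector arrays alone (line 167, then 365), Mmp3 (3.93 and 4.54), Mmp10 (4.06 and 4.44) and Adamts5 (4.15 and 4.33) averaged under the limit. By Smarcb1 arrays alone, Adamts13 (4.17 and 4.31) and Adamts18 (4.33 and 4.17) did. Array medians lay between 5.03 and 5.07. In a bulk sample more cells with a transcript and more transcript per cell cannot be told apart.

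Smarcb1 itself gave 4.61 with empty vector and 7.83 with Smarcb1 in line 167, and 6.01 and 9.61 in line 365, a mean change of 3.41 ± 0.20 (limma adjusted p = 0.0371). In both lines the vector labels match this signal. Smarcb1 also differed between the lines, by 1.59 ± 0.20 over both vectors (line 365 minus line 167, limma adjusted p = 0.0177). The part of this difference in the sizes of the changes in each line was not tested. The mesenchymal marker vimentin (Vim) was at 13.3 to 13.5 on all arrays. Of the 8 macrophage markers, 5 lay below the limit on all arrays (Ptprc, Itgam, Adgre1, Lyz2 and Cd14). Csf1r (4.70 to 5.19) and Cd68 (8.18 to 9.95) reached it on all 4, and Tyrobp on 1. Of the 7 neutrophil markers, 4 lay below it on all arrays, and 1 reached it on all. Summed linear signal of the macrophage markers was 752 and 532 in line 167 and 1104 and 417 in line 365 (empty vector, then Smarcb1), most of it from Cd68, and that of the neutrophil markers lay between 105 and 131. Summed linear signal of the 7 epithelial markers was 211 and 303 in line 167 and 250 and 508 in line 365 in the same order, with Epcam below the limit on every array. Krt19 made up 12.1% and 30.3% of it in line 167 and 19.3% and 60.8% in line 365. The mean log2 signal of the 10 fibroblast and mesenchymal markers was 7.33 and 8.34 in line 167 and 6.25 and 6.31 in line 365. The part of these markers in the vector comparison was not tested.

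With Smarcb1 restored, 20 of the 33 tested members (60.6%) had higher signals in both lines, against 26% of all tested genes, and large differences were found in few of them. Mmp3, Mmp13, Mmp14, Adamts12 and Timp3 were at least 2-fold higher in both lines, which is 5 of 33 tested members (15.2%) against 1.33% of all tested genes. Mmp3, Mmp10 and Adamts5, whose means reached the limit only through the Smarcb1 arrays, are among the members counted in this paragraph. In line 167 alone 9 of the 33 (27.3%) were at least 2-fold higher, against 3.4% of all genes, and in line 365 it was 6 (18.2%), against 2.84%. By the 1 probe set that stands for each gene, 0 members were at least 2-fold lower in line 167 and 0 in line 365. The shares over all genes were 1.49% and 1.17%, and 0.186% were so in both lines. Of the 16 probe sets of Adamts3, 5 were at least 2-fold lower in line 167 and 1 in line 365. In line 167 the members' median change was 0.33, against -0.06 over all tested genes, and in line 365 it was 0.08, against -0.01.

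The limma test across both lines called 0 members at an adjusted p below 0.05, in either direction. The same test called 0.0645% of all tested genes higher and 0% lower. At an unadjusted p below 0.05, 11 members were higher and 0 lower, against 5.88% and 5.68% of all tested genes. The 11 were Mmp3, Mmp11, Mmp13, Mmp14, Mmp19, Adamts6, Adamts7, Adamts9, Adamts12, Adamts14 and Timp3. Of these, Mmp3 reached the signal limit only through its Smarcb1 arrays. Mmp3 passed with other filters or normalizations, at adjusted p = 0.0212 to 0.0477, as did Mmp14 and Timp3 with a filter at the 50th percentile (0.0383 and 0.0458). The residual has 1 degree of freedom, how unequal the changes of the lines are, so the test measures the spread between 2 tumour lines. Single-line changes rest on 1 pair of arrays and were not tested.

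**Figure D1:**
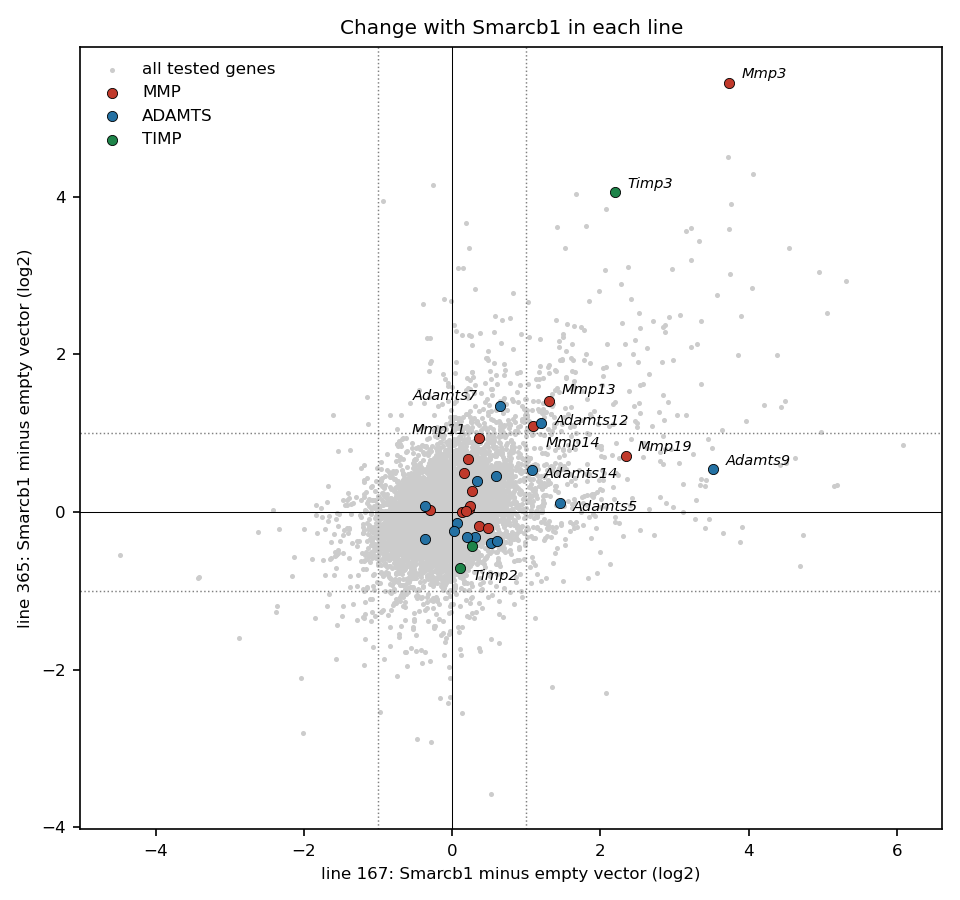
Change with Smarcb1 (Smarcb1 minus empty vector, log2) in line 167 on the horizontal axis and in line 365 on the vertical axis, for 33 tested members coloured by family and for all tested genes in grey. Dotted lines mark 2-fold changes. Mmp3 and Timp3 lie far to the upper right, and Adamts9 and Mmp19 lie far to the right with changes in line 365 below 1.

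The 250 bases before the RefSeq transcription start (build GRCm38.p6) are shown for the 5 genes that were at least 2-fold higher in both lines. Whether these stretches have a part in the changes was not tested. Each stretch is written in the direction of the gene, with the AP-1 motif TGAGTCA or its reverse complement TGACTCA in capitals.
Mmp3, chr9:7445572-7445821 (plus strand): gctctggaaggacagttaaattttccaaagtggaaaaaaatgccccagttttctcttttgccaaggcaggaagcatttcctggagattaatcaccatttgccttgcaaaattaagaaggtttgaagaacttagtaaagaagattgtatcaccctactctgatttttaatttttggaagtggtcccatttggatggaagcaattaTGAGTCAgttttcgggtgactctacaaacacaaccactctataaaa
Mmp13, chr9:7272264-7272513 (plus strand): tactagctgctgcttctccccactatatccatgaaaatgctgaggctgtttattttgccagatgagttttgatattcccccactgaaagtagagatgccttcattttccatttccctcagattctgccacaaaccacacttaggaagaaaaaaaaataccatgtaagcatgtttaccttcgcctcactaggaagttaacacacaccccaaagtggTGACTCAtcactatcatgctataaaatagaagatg
Mmp14, chr14:54431348-54431597 (plus strand): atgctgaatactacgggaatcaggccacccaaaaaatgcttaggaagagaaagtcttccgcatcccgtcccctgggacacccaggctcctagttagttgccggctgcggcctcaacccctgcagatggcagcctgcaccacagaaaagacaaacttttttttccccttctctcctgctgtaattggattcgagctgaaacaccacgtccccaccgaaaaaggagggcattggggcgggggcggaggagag
Adamts12, chr15:11064523-11064772 (plus strand): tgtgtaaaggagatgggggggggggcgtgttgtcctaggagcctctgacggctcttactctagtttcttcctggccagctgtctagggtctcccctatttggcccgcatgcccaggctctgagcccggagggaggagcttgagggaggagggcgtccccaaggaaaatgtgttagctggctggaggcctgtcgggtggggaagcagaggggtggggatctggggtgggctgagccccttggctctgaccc
Timp3, chr10:86300162-86300411 (plus strand): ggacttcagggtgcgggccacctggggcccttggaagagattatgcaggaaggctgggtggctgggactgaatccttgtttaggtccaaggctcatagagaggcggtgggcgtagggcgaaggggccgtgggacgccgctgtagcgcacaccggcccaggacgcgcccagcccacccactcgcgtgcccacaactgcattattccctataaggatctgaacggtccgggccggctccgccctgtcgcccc
The motif, searched on both strands, occurs in the Mmp3 window from 46 bases before the start and in the Mmp13 window from 35 bases before it. The windows of Mmp14, Adamts12 and Timp3 hold 0 matches. Over all windows of this length in the RefSeq table, 4.46% hold the motif. A match is a stretch of letters and not a shown binding site.

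The stromelysins include the member with the largest mean change. Mmp3, stromelysin-1, degrades proteoglycans, laminin and fibronectin and can activate other MMP precursors. Its signal was 3.93 with empty vector and 7.66 with Smarcb1 in line 167, and 4.54 and 9.98 in line 365. Both Smarcb1 arrays stood far above both empty-vector arrays, and the control of line 167 was under the limit of 4.27, so the size of its change is uncertain. The fold changes were 13.3 and 43.7, with a mean of log2 4.59 ± 0.43 (SE moderated by limma's eBayes) and limma adjusted p = 0.0694. Ranked by mean change over the 13956 tested genes, Mmp3 was number 1, and it was number 1 in line 365 and number 28 in line 167.

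The other stromelysins had far smaller differences. Mmp11, stromelysin-3, which is activated inside the cell by furin, was at 7.49 and 7.85 in line 167 and at 6.15 and 7.09 in line 365 (empty vector, then Smarcb1, here and below). Its mean change was 0.65 ± 0.22 (limma adjusted p = 0.390), and the groups overlapped because line 167 was the brighter line. On chromosome 10 Mmp11 is the neighbour of Smarcb1 itself in the RefSeq gene table. Mmp10, stromelysin-2, gave 4.06 and 4.33, then 4.44 and 4.72, which lies close to the limit on all arrays.

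Among collagenases, which cut the triple helix of fibrillar collagen, Mmp13 was the 1 member that passed the signal limit. Mmp13 is the main interstitial collagenase of rodents. It was at 4.22 and 5.54 in line 167 and at 4.93 and 6.35 in line 365. Both Smarcb1 arrays exceeded both controls. The control of line 167 was just under the limit, so the size of its change is uncertain. The fold changes were 2.49 and 2.67 (mean log2 1.36 ± 0.17, limma adjusted p = 0.0926). Mmp1a, Mmp1b and Mmp8 stayed between 2.91 and 3.51 on all arrays, below the limit.

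**Figure D2:**
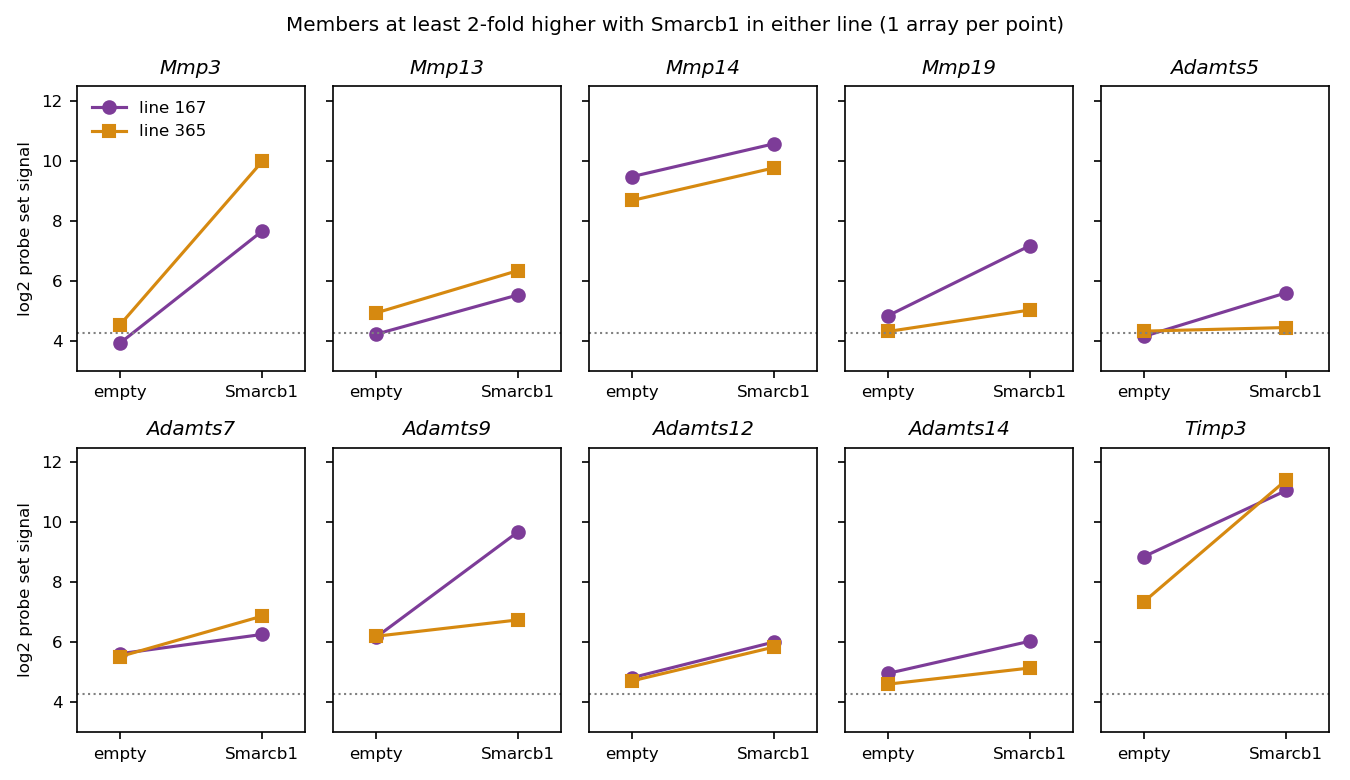
Log2 probe set signal with empty vector and with Smarcb1 for the 10 members at least 2-fold higher in either line, with 1 array per point and lines joining the arrays of a cell line. The dotted line is the limit of 4.27. Mmp13, Mmp14 and Adamts12 run nearly parallel in both lines, while Adamts9, Mmp19 and Adamts5 separate with Smarcb1.

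Mmp13, Mmp3, Mmp10 and Mmp12 belong to an unbroken run of 10 MMP genes on chromosome 9, with no other protein-coding gene between them in the RefSeq table. Their order is Mmp13, Mmp12, Mmp1b, Mmp3, Mmp1a, Mmp10, Mmp8, Mmp27, Mmp20 and Mmp7. Within this run, Mmp13 and Mmp3 were more than 2-fold higher in both lines. Mmp1b and Mmp1a, which flank Mmp3 on either side, had changes of -0.04 and 0.07 and by 0.05 and 0.13 (line 167, then line 365) at signals below the limit. Mmp12, macrophage elastase, was at 4.15 and 4.31 in line 167, then at 4.46 and 4.97. In all, 6 of the 10 genes of the run had a mean below the limit.

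**Figure D3:**
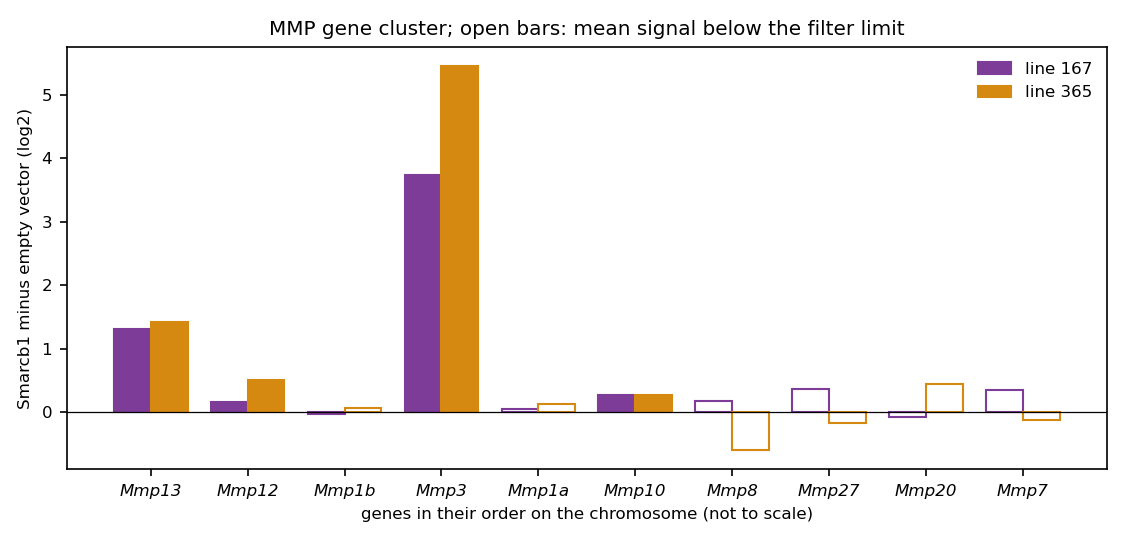
Change with Smarcb1 (log2, bars from 0) in line 167 and line 365 for the 10 MMP genes of the chromosome 9 run, in chromosomal order and not to scale. Open bars are genes with a mean signal below the limit. Mmp3 and Mmp13 stand out between neighbours whose bars stay below 1 in size.

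Promoter windows were found for 30 of the 44 members, with 33 windows in all. Of these windows, 7 (21.2%) hold the AP-1 motif, against 4.46% of all windows of this length. All 7 belong to genes of the chromosome 9 run, so the share does not describe the families as a whole. The stretches of the 5 not yet shown are given below with 20 bases on each side, to set them beside Mmp3 and Mmp13.
Mmp12, chr9:7347310-7347356 (plus strand): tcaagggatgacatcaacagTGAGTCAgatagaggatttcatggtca
Mmp1b, chr9:7388093-7388139 (minus strand): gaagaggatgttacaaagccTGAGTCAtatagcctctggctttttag
Mmp1a, chr9:7464048-7464094 (plus strand): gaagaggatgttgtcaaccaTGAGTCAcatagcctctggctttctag
Mmp10, chr9:7502259-7502305 (plus strand): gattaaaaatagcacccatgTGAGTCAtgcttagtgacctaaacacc
Mmp7, chr9:7692007-7692053 (plus strand): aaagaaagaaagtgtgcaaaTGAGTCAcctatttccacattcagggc
Mmp12 and Mmp7 have 2 windows each, and the motif is in 1 of them. Of the 5 members at least 2-fold higher in both lines, Mmp3 and Mmp13 hold the motif. The tested genes Mmp10 and Mmp12 hold it too, with changes of 0.27 and 0.27 and of 0.16 and 0.50 (line 167, then line 365). So do Mmp1a, Mmp1b and Mmp7, whose signals lay below the limit with either vector. Of the AP-1 and ETS transcription factor genes listed as context, 15 were tested. Among these 15, 0 were called with Smarcb1 by limma at an adjusted p below 0.05. At an unadjusted p below 0.05, 0 were higher and 1 was lower, where 5.88% and 5.68% of all tested genes were. That gene was Fosb, named after its value was seen, with changes of -0.52 and -1.49.

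Membrane-type MMPs are tethered to the cell surface, and Mmp14 (MT1-MMP) is the one known for cleaving collagen at the cell edge and for activating the Mmp2 precursor. Mmp14 was at 9.48 and 10.58 in line 167 and at 8.68 and 9.77 in line 365. Both Smarcb1 arrays exceeded both controls, and the change was nearly equal in the lines, at 1.10 and 1.09 (mean 1.09 ± 0.13, limma adjusted p = 0.0865). Mmp16 (MT3-MMP) was at 7.26 and 7.47, then at 6.97 and 7.65, a mean change of 0.44 ± 0.21 (limma adjusted p = 0.501). For Mmp17, Mmp24 and Mmp25 the changes lay between -0.30 and 0.49 in the single lines.

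The gelatinases cleave denatured collagen and type IV collagen. Mmp2, whose precursor Mmp14 activates, was at 4.98 and 5.11 in line 167 and at 7.33 with either vector in line 365. Its change with Smarcb1 was 0.07 ± 0.19 (limma adjusted p = 0.917), and both arrays of line 365 stood above both of line 167. Mmp9 had changes of 0.36 and -0.18.

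Mmp19 differed between the lines in the size of its change. Its signal was 4.84 and 7.18 in line 167 and 4.31 and 5.03 in line 365. Both Smarcb1 arrays exceeded both controls, but the fold change was 5.07 in line 167 and 1.64 in line 365 (mean log2 1.53 ± 0.41, limma adjusted p = 0.299). That difference between the lines was not tested. Adamts9 and Adamts5 also had the larger value in line 167. Over the 10 fibroblast and mesenchymal markers the mean log2 signal was 7.33 and 8.34 in line 167, and 6.25 and 6.31 in line 365. Col1a1 had fold changes of 6.29 and 1.02 and Col1a2 of 3.34 and 1.00 (line 167, then line 365), and their part in the values of Mmp19, Adamts9 and Adamts5 was not tested. Mmp23 and Mmp28 had changes of at most 0.24. Mmp7, Mmp20, Mmp21 and Mmp27 lay below the limit, at 3.31 to 4.21 on all arrays.

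Among the 15 tested ADAMTS genes, 7 were higher in both lines, 1 was lower in both and 7 (46.7%) had opposite signs. Over all tested genes, 26% were higher in both, 34.1% lower in both and 39.8% had opposite signs. The 15 tested MMP genes split into 12 higher in both and 3 with opposite signs, and the difference between the families was not tested. Those higher in both include Mmp3, Mmp10 and Adamts5, whose means reached the limit only through the Smarcb1 arrays. Adamts13 and Adamts18, with opposite signs, reached it only through the empty-vector arrays. The median ADAMTS change was 0.52 in line 167 and 0.08 in line 365.

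Adamts9, which cleaves versican and aggrecan, had the largest change of the family, and nearly all of it was in line 167. The signal was 6.17 and 9.69 in line 167 and 6.21 and 6.75 in line 365. The controls of this probe set were alike, and its Smarcb1 arrays differed by 2.94. In each of the other 5 probe sets the control of line 365 was lower, with differences from -0.68 to -0.12. The fold changes were 11.5 and 1.46 (mean log2 2.03 ± 0.71, limma adjusted p = 0.393). Each of its 6 probe sets was higher with Smarcb1 in both lines, by 2.30 to 4.36 in line 167 and by 0.43 to 1.33 in line 365. Probe sets of a gene read the same RNA and are not replicates.

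The other proteases that cut hyaluronan-binding proteoglycans did not share this size of change. Adamts5, an aggrecanase, was at 4.15 and 5.60 in line 167 and at 4.33 and 4.45 in line 365, with the control of line 167 under the limit and a mean change of 0.79 ± 0.34 (limma adjusted p = 0.470). Adamts1 was at 8.04 and 8.56 in line 167, and at 9.12 and 8.72 in line 365, so the signs were opposite. Adamts1 and Adamts5 are neighbours on chromosome 16. The other main aggrecanase gene, Adamts4, also had opposite signs, with 7.10 and 7.41 in line 167 and 8.24 and 7.93 in line 365. For Adamts8 and Adamts20 the single-line changes lay between -0.37 and 0.08.

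Adamts7 and Adamts12, which cleave cartilage oligomeric matrix protein, were higher in both lines. Adamts12 was at 4.82 and 6.02 in line 167 and at 4.72 and 5.85 in line 365, with no overlap between the vector groups and changes of 1.19 and 1.13 (mean 1.16 ± 0.17, limma adjusted p = 0.124). Adamts7 was at 5.62 and 6.27, then at 5.53 and 6.88, a mean change of 1.00 ± 0.25 (limma adjusted p = 0.278). For this pair, too, the Smarcb1 arrays exceeded all controls. Their substrate gene Comp had changes of 0.40 and 0.06.

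The procollagen N-propeptidases, which remove the amino-terminal propeptide of fibrillar procollagens, had mean changes of opposite sign, with neither past the test. Adamts14 was at 4.97 and 6.04 in line 167 and at 4.61 and 5.15 in line 365 (mean change 0.81 ± 0.20, limma adjusted p = 0.284). Adamts3 was the 1 tested member lower in both lines. It was at 6.99 and 6.62 in line 167 and at 5.87 and 5.53 in line 365, a mean change of -0.36 ± 0.19 (limma adjusted p = 0.540). Of its 16 probe sets, 15 were lower with Smarcb1 in line 167 and 14 in line 365. Their changes ran from -1.23 to 0.03 (median -0.61) in line 167 and from -1.10 to 0.24 (median -0.20) in line 365.

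**Figure D4:**
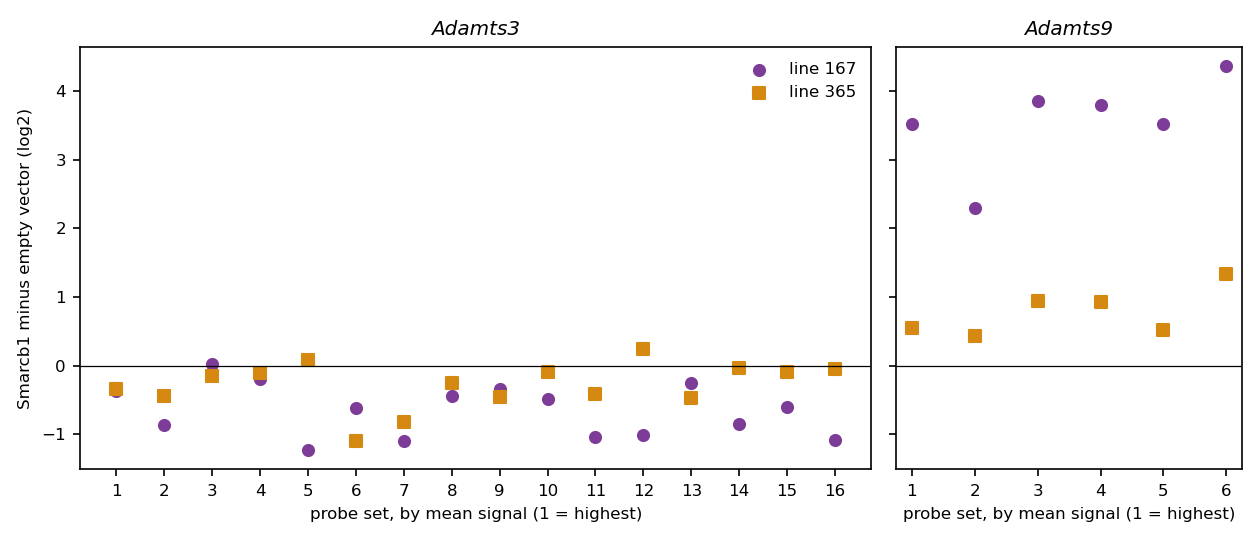
Change with Smarcb1 (log2) in line 167 and line 365 for each of the 16 probe sets of Adamts3 and the 6 of Adamts9, ordered by mean signal. All Adamts9 points lie above 0, with line 167 above line 365 at each probe set, and most Adamts3 points lie below 0.

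The remaining ADAMTS genes had small differences. Adamts6 was at 4.51 and 5.11, then at 4.38 and 4.83, a mean change of 0.52 ± 0.15 (limma adjusted p = 0.315), with both Smarcb1 arrays above both controls. Adamts17 had changes of 0.33 and 0.40, and its 5 probe sets spanned -0.24 to 0.33 in line 167 and -0.18 to 0.41 in line 365. Adamts10, Adamts13 and Adamts18 had opposite signs, with changes of 0.61 at most in size. Adamts15, Adamts16 and Adamts19 had means below the limit, with single arrays from 3.75 to 4.43. Across families, both Smarcb1 arrays exceeded both controls in 15 of 33 tested members (45.5%), where 13.6% of all tested genes did. Mmp3 and Adamts5, whose means reached the limit only through the Smarcb1 arrays, are among these 15. In 0 members both Smarcb1 arrays lay below both controls, where 15.5% of all tested genes did.

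The TIMP genes showed 3 different patterns. Timp3, the inhibitor that binds to the matrix and blocks ADAMTS and ADAM proteases as well as MMPs, was at 8.86 and 11.07 in line 167 and at 7.36 and 11.42 in line 365. Both Smarcb1 arrays stood above both controls by over 2 log2 units. The fold changes were 4.60 and 16.6 (mean log2 3.13 ± 0.44, limma adjusted p = 0.120). Line 167 was the brighter line with empty vector, and line 365 was the brighter by 0.35 with Smarcb1. Among all tested genes Timp3 had rank 20 by mean change and rank 5 in line 365.

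Timp1 and Timp2 had opposite signs in the lines. Timp1 was at 10.68 and 10.95 in line 167 and at 11.38 and 10.95 in line 365, so that the Smarcb1 arrays of both lines met at the same value. Timp2, which bridges Mmp14 and the Mmp2 precursor at the cell surface, was at 11.07 and 11.17 in line 167 and at 11.59 and 10.88 in line 365. The changes of Timp2 were 0.10 and -0.71 (mean -0.30 ± 0.21, limma adjusted p = 0.628). Timp4 lay below the limit at 3.46 to 3.78. Timp1, Timp3 and Timp4 each lie inside the span of a synapsin gene in the RefSeq table. Syn3, around Timp3, had changes of 0.08 and 0.03.

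Between the lines, the same model gave 4 calls among the members at an adjusted p below 0.05. Of the 33 tested members, 1 was higher in line 365 (3.03%) and 3 in line 167 (9.09%), where 5.31% and 5.64% of all tested genes were called in these directions. Mmp2 was higher in line 365 by 2.28 ± 0.19 over both vectors (limma adjusted p = 0.00750), or 4.87-fold. Mmp25, the leukolysin gene (MT6-MMP), was higher in line 167, with signals of 7.15 and 6.85 against 4.64 and 4.67 in line 365. Its difference, line 365 minus line 167, was -2.35 ± 0.20 (limma adjusted p = 0.00766). With both vectors the difference was at least 2-fold in Mmp2, higher in line 365 (2.94% of all tested genes), and in Mmp25 and Adamts3, higher in line 167 (3.21%).

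Adamts3 was higher in line 167 as well, 2.15-fold (line 365 minus line 167 -1.11 ± 0.19, limma adjusted p = 0.0335). All 16 of its probe sets were lower in line 365 with either vector, with mean differences from -1.96 to -0.63. The call of Adamts3 ended without the vector term in the model (adjusted p = 0.0802). Mmp14 was 1.74-fold higher in line 167 (-0.80 ± 0.13, limma adjusted p = 0.0285), although the Smarcb1 array of line 365, at 9.77, exceeded the control of line 167. The call of Mmp14 ended without the intensity trend (adjusted p = 0.0515) and without the vector term (0.413). Mmp11 was 2.07-fold higher in line 167 and Mmp13 1.69-fold higher in line 365, with limma adjusted p = 0.0527 and 0.0553, so neither was called. Mmp11 passed under both other filters and both normalizations (0.0285 to 0.0458), and Mmp13 after both normalizations (0.0478 and 0.0484). Adamts4 and Adamts8 were higher in line 365 by 0.83 and 0.62 (limma adjusted p = 0.0838 and 0.0746). At an unadjusted p below 0.05, 13 members differed between the lines, where 30.8% of all tested genes did. The mean difference was at least 2-fold in 7 members, against 9.62% of all tested genes. Both arrays of line 365 exceeded both of line 167 in 8 members (26.7% of all tested genes), and both lay below in 5 (29.1%).

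**Figure D5:**
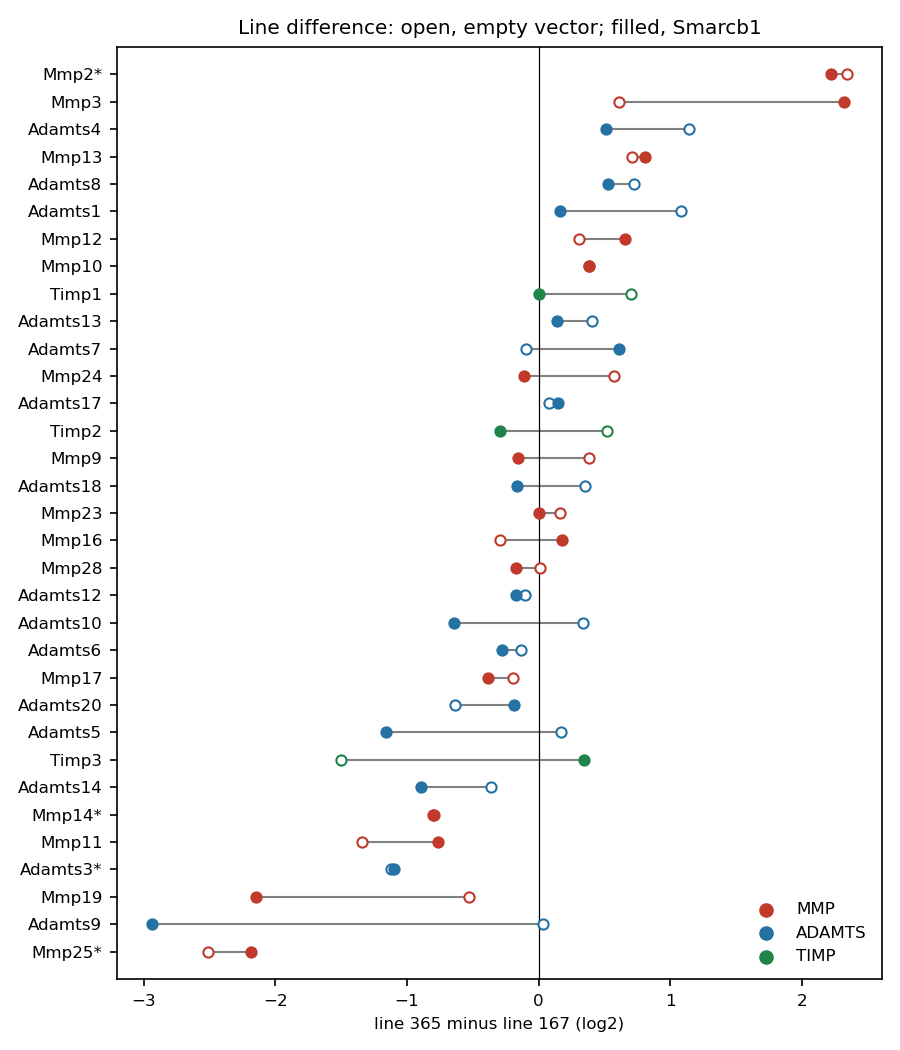
Difference of line 365 minus line 167 (log2) for the 33 tested members, with empty vector (open) and with Smarcb1 (filled), coloured by family and ordered by the mean. Asterisks mark a limma adjusted p below 0.05. The points of Mmp2, Mmp25, Mmp14 and Adamts3 lie close together, and those of Adamts9, Timp3 and Mmp3 far apart.

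Some markers of other cell types differed between the lines. Summed linear signal of the 6 endothelial markers was 91.9 and 96.6 in line 167 and 623 and 406 in line 365. Cdh5 gave 14.9% and 12.9% of the sum in line 167 and 85.5% and 77.3% in line 365, while Emcn and Tek lay below the limit on all arrays. Both arrays of line 365 exceeded both of line 167 in 4 of the 6, where 26.7% of all tested genes did. In 1 it was the reverse, where 29.1% of all tested genes were. Of the 4, Cdh5 differed by 4.97 over both vectors (limma adjusted p = 0.00296). Kdr and Tie1 differed by 0.26 each (limma adjusted p = 0.287 and 0.261). Pecam1, and Emcn with the reverse, had means below the limit. Over the 10 fibroblast and mesenchymal markers the summed linear signal was 15320 and 16801 in line 167 and 10620 and 11255 in line 365. Among them Lum lay below the limit on all arrays. Vim made up 60.2% to 93.3% of that sum. Both arrays of line 167 exceeded both of line 365 in 4 of the 10, where 29.1% of all tested genes did. The 4 were Col1a1, Col1a2, Col3a1 and Pdgfrb, named after their values were seen. In 0 it was the reverse, where 26.7% of all tested genes were. The part of these markers in the line differences of Mmp2, Mmp25, Mmp14 and Adamts3 was not tested.

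Genes that act with the metalloproteinases were read from lists of related genes. In the limma test 0 genes of these lists passed for the vector at an adjusted p below 0.05. The counts that follow are at an unadjusted p below 0.05, which 5.88% of all tested genes passed as higher and 5.68% as lower, with genes named after their values were seen. Of 12 tested genes for MMP activation and surface control, 2 were higher (Pcsk5 and Plat) and 1 lower (Plaur). Of 10 genes of the ADAM family, 3 were higher (Adam9, Adam10 and Adam23) and 1 lower (Adam8). Of 6 ADAMTS-like genes, Adamtsl3 was higher and Adamtsl5 lower. Of 3 tested astacin proteases, Bmp1 and Tll1 were higher, and of 12 substrate genes, Vcan, Fn1 and Tnc. Bmp1, which removes the carboxy-terminal propeptide of procollagens, was at 7.83 and 9.44 in line 167 and at 7.66 and 8.99 in line 365. Its relative Tll1 was at 3.72 and 5.12, then at 3.67 and 4.80, with both controls below the limit. For both genes limma adjusted p was 0.0865.

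The ADAMTS-like gene Adamtsl3 had changes of 1.02 and 1.24 (limma adjusted p = 0.118). Vcan, which encodes versican, the substrate of Adamts9, had changes of 1.34 and 1.02 (limma adjusted p = 0.151), and the substrate genes Fn1 and Tnc were more than 2-fold higher in both lines too. Adam8, a sheddase of leukocytes and tumour cells, was the 1 context gene at least 2-fold lower in both lines, at 9.17 and 7.48 in line 167 and at 10.37 and 9.17 in line 365 (limma adjusted p = 0.0926).

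For the line term, 6 of 58 tested context genes (10.3%) were higher in line 365 and 5 (8.62%) in line 167 in the limma fit at an adjusted p below 0.05, where 5.31% and 5.64% of all tested genes were. They are named here after their values were seen. Furin, Plaur, Plat, Adam8, Adam9 and Fosl1 were higher in line 365, and Reck, Adam12, Adamtsl3, Fn1 and Col3a1 in line 167. Furin activates Mmp11 and Mmp14 inside the cell, and its difference was 0.76. Reck, a membrane-anchored inhibitor of MMPs, differed by -0.98, and Plaur, the urokinase receptor, by 2.70.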

How the data were processed

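Total RNA of 4 cultures was measured on whole-transcript arrays. The authors deposited log2 signals per probe set; the submitters' processing notes name RMA and Affymetrix Expression Console. RMA removes background, gives all arrays 1 distribution and summarises each probe set. Neither settings nor a genome build are stated in the labels. The deposited log2 values were used unchanged. Of 35556 probe sets, 21789 carry 1 gene symbol in the platform annotation. All 44 members matched the RefSeq gene table (GRCm38.p6) by Entrez identifier, and 0 member probe sets carry several symbols. Over 13956 genes limma 3.58.1 in R 4.3.3 fitted line and vector (lmFit, eBayes with intensity trend, two-sided, Benjamini-Hochberg over all tested genes), with 1 residual and 3.75 prior degrees of freedom. The fit was also run on simulated data with the same true change in both lines. Those data follow the model's own assumptions and hold no true difference in response between the lines. The line pairs the arrays, whose deviations from the vector means correlated at 0.770 within a line. Repeat cultures of a line and vector are not stated, so p-values measure only the spread between these samples, moderated with the variances of all tested genes. The number of arrays limits the precision. The members and lists were chosen with earlier results of these data known. All members may be named; context genes were named where both lines differed at least 2-fold in 1 direction, with exceptions stated. Promoter windows are RefSeq's. Alternatives covered filter, normalization, trend, block, probe sets, threshold and single lines.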

Additional observations from a re-analysis of the deposited data

How the results depend on the processing

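With 0 members called for the vector, the count moved to 1 higher without the filter, after quantile normalization and after cyclic loess (Mmp3 each time, limma adjusted p = 0.0301, 0.0426 and 0.0477). It was 3 with a filter at the 50th percentile (Mmp3, Mmp14 and Timp3) and 3 at an adjusted p below 0.10 (Mmp3, Mmp13 and Mmp14). Over all genes the 9 higher calls became 64, 91, 47 and 48 without the filter, with the 50th percentile filter, after quantile normalization and after cyclic loess, and 93 at 0.10. The 0 lower calls became 4, 10, 1 and 1, and 10 at 0.10. The replicate block is the other term of the model, the cell line for the vector comparison and the vector for the line comparison. Without the replicate block 0 genes were higher with Smarcb1, and line calls over all genes went from 741 and 787 to 335 (line 365) and 318 (line 167), with 1 member (Mmp25) left in line 167. At 0.10 the line calls were 1427 and 1488, with 4 members higher in line 365, and 2 members were higher in line 365 after quantile normalization and after cyclic loess. Mmp14's line call ended without the intensity trend (adjusted p = 0.0515) and without the block (0.413), and Adamts3's without the block (0.0802). Adamts4's change with Smarcb1 turned from -0.00097 to 0.0274 after quantile normalization and 0.0532 after cyclic loess. Leaving out a line leaves no residual, so it gives values with no test. The median member change was then 0.08 to 0.33, and the median line difference, 0.08 over both vectors, was -0.16 on the Smarcb1 arrays alone. Counts of members past 2-fold in a single line stayed within 1.5 times under the settings run.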
